A study of Mus musculus with 16 samples.

Results

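ChIP-seq of H2AK119ub1 (histone H2A monoubiquitinated on a lysine of its tail) gave 8672 peaks in wild-type mouse embryonic stem cells (ES), and 6705 of them, 77.3% (95% Wilson interval 76.4 to 78.2), had no counterpart in neural precursor cells (NPC). These 6705 peaks are the subject here. They were selected on the peak calls of both NPC lists, as all ES peaks that shared not even 1 bp with a peak of wild-type NPC or of PCGF5-depleted NPC, and they are called lost below, which says only that neither NPC list held a peak there. The remaining 1967 ES peaks were kept in wild-type NPC only (663), in PCGF5-depleted NPC only (542) or in both (762). Since the NPC lists chose the members, these counts are a description and no test was made on them.

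The ES cells were of the 46C line, in which green fluorescent protein reports Sox1, a gene of early neural fate, and were grown on inactivated embryonic fibroblasts with LIF and 2 kinase inhibitors. NPC were the same cells on day 6 of neural differentiation. The study describes suspension culture in serum-replacement medium, shown for its Flag-tagged cells, and a monolayer culture too. Cells without PCGF5 are titled PCGF5-depleted and carry the genotype shPCGF5 in the labels, while the study also describes a knockout, so which of these was used is uncertain. The lines were grown from picked colonies after drug selection, and how many feeder cells entered ES chromatin was not tested. PCGF5 was mapped through a Flag tag knocked into its own gene, in ES and in derived NPC, although the labels give these cells as wild type. Each of the 16 libraries stood alone in its group, and 10 of them came with a peak list, 8 for histone marks and 2 for Flag-PCGF5. There was thus no replicate error, intervals cover counting error only, and genotype and library cannot be told apart. Read depth was unknown from these files, so whether more reads would have given the missing peaks was not tested.

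H2AK119ub1 is laid down by Polycomb repressive complex 1 (PRC1), whose RING1 ubiquitin ligase works with several alternative PCGF subunits, PCGF5 among them. H3K27me3 is the methyl mark of Polycomb repressive complex 2 (PRC2). In ES both marks are best known at CpG islands of silent developmental genes, where each complex can help to recruit the other. During neural differentiation part of this marking is removed while other lineages remain marked.

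Many of the highest-scoring lost peaks lay on perfect tandem repeats. The sequences of 2 such members at promoters show it (NCBIM37 assembly, the basis of mm9, forward strand, 5′ to 3′). The first copy of the repeated unit within the longest exact tract is in capitals, and peaks over 180 bases are shown for 180 bases about that tract. Naip2 and Stk32c are the highest by −log10 p-value at promoters, without untranslated sequence, that H2AK119ub1 of PCGF5-depleted ES and H3K27me3 of wild-type ES shared.
Naip2, chr13:100964943-100965113, intron, near a start site: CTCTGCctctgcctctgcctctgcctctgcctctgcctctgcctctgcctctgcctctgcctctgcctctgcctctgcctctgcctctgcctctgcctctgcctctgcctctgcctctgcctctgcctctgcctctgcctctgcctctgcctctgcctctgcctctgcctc
Stk32c, chr7:146375192-146375371, intron, near a start site: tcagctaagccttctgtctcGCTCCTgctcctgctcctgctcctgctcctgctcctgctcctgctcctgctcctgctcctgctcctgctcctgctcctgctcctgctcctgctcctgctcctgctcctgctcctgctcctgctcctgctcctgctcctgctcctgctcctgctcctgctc

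The unit at Naip2 was CTCTGC, which on the opposite strand and in other phase is the hexamer written GAGGCA from here on. At Stk32c it was GCTCCT, a hexamer of its own. The exact tract within the printed stretch was 171 bases at Naip2, its whole length, and 160 bases at Stk32c. The stretch at Naip2 held 0 CpG and that at Stk32c held 1.

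Other members were not repeats, and 3 lost peaks without one are shown beside a kept peak, on the same assembly and strand. CpG is in capitals, since both Polycomb marks are best known at CpG islands. The Atg7 member has the second highest −log10 p-value of all lost peaks, and Flg is a promoter peak that other ES lists shared. Of 8 genes listed here as examined by the study 7 were annotated, and only Nes had a lost peak at its promoter. Pax6, whose protein the study stained, was not in that list and had 1 lost peak and 8 kept peaks. The Irx5 peak was kept in both NPC lists and is the highest of its class at the promoter of a homeobox gene with a CpG-island-like window and no untranslated sequence. Nes and Irx5 were added after the values were seen.
Atg7, chr6:114532723-114532932, lost, intergenic: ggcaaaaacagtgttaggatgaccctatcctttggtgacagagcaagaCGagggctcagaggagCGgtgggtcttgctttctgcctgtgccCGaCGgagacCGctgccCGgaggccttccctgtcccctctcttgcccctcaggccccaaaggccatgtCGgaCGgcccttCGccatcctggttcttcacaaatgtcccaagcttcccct
Flg, chr3:93091844-93092143, lost, middle of a wider peak in coding sequence: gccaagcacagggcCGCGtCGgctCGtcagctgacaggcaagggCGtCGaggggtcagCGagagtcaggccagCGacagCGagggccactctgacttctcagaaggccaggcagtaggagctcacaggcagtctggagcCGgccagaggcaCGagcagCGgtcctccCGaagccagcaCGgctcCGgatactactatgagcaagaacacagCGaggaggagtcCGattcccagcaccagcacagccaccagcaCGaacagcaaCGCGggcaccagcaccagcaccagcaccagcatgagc
Nes, chr3:87776381-87776535, lost, near the start: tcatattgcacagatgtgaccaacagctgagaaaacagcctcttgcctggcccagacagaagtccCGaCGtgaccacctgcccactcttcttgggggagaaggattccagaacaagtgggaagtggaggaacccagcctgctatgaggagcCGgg
Irx5, chr8:94883717-94884016, kept in both NPC, middle of a wider peak: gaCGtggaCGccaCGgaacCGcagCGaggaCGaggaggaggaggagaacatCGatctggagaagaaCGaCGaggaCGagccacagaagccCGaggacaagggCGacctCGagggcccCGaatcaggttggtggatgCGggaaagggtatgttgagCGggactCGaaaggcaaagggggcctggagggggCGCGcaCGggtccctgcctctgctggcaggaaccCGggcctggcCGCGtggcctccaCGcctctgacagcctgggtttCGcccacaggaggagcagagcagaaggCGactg

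The stretches held 9 CpG in 210 bases at Atg7, 20 in 300 at Flg, 3 in 155 at Nes and 26 in 300 at Irx5. Irx5 was chosen for a CpG-island-like window, so these counts do not compare lost with kept peaks.

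The extent of the repeats was counted in 500 bp windows about the centre of every ES peak, where a tandem repeat means an exact tract of at least 50 bases made of a unit of 1 to 12 bases repeated 3 or more times. The hexamer was chosen for counting after sequences of lost peaks, most of them picked for a high score, were seen. Its shares by class and by score are a description and not independent of that choice. A GAGGCA tract, on either strand, lay in the window of 350 of 6705 lost peaks, 5.22% (4.71 to 5.78), of 9 of the 663 kept in wild-type NPC only, of 6 of the 542 kept in PCGF5-depleted NPC only and of 0 of the 762 kept in both, which allows a share of up to 0.394% (3 counts). All ES peaks gave 4.21%, and 500 bp tiles placed every 100 kb along the genome gave 0.0157%. Any tandem repeat was found in 699 lost peaks (10.4%), beside 9.96% of all ES peaks and 2.85% of tiles. The hexamer alone thus made up 350 of those 699. The next most frequent units among lost peaks were AAGGG with 29 members, and AC and AG with 27 each, which tiles also held.

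Hexamer repeats were concentrated among lost peaks with a high score, from which the unit had been picked. Of the lost peaks in the highest-scoring quartile of the ES list, 273 of 1357 held one, 20.1% (18.1 to 22.3), against 13 of 1890, 0.688% (0.402 to 1.17), in the lowest quartile. Kept peaks of the highest quartile held one in 13 of 811 cases, 1.60% (0.939 to 2.72). Among the 100 highest lost peaks there were 48, and among the 10 highest there were 5, those nearest to Api5, Tinagl1, Gm16427 and Hmcn2 among them. The median −log10 p-value was 12.5 for the 350 members with the hexamer and 7.22 for the 6006 members without a tandem repeat. Of the 350, 215 were intergenic, 113 intronic and 22 at promoters.

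Peaks at these repeats were shared among the ES lists. H3K27me3 of wild-type ES overlapped 273 of the 350 (78.0%), H2AK119ub1 of PCGF5-depleted ES 183 (52.3%) and H3K27me3 of PCGF5-depleted ES 155 (44.3%). In NPC, H3K27me3 of wild-type cells overlapped 6 (1.71%) and H3K27me3 of PCGF5-depleted cells 105 (30.0%). Flag-PCGF5 overlapped 0 in ES and 0 in NPC. The difference between the NPC lists rests on 1 library each and was not tested.

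Each list was also laid over all 1426 tracts of the genome with at least 8 copies of the hexamer, which span 48 to 1296 bases. Of the 146 tracts of 200 bases or more, wild-type ES H2AK119ub1 overlapped 130, or 89.0% (82.9 to 93.1), and wild-type ES H3K27me3 overlapped 132, or 90.4% (84.5 to 94.2). PCGF5-depleted ES overlapped 114 with H2AK119ub1 (78.1%) and 93 with H3K27me3 (63.7%). Wild-type NPC overlapped 5 with H2AK119ub1 (3.42%) and 6 with H3K27me3 (4.11%). PCGF5-depleted NPC overlapped 0 with H2AK119ub1 and 81 with H3K27me3 (55.5%). Both Flag-PCGF5 lists overlapped 0. Of the 501 tracts under 100 bases, wild-type ES H2AK119ub1 overlapped 89 (17.8%). Tracts of 200 bases or more had the highest share in every histone list other than H2AK119ub1 of PCGF5-depleted NPC. In wild-type NPC, H2AK119ub1 overlapped 1 of the 501 tracts under 100 bases and 5 of the 779 from 100 to under 200 bases, and H3K27me3 5 and 7 of them. Reads from such repeats are hard to place on a genome, and how placement, copy number and the mark itself entered these calls was not tested.

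**Figure D1:**
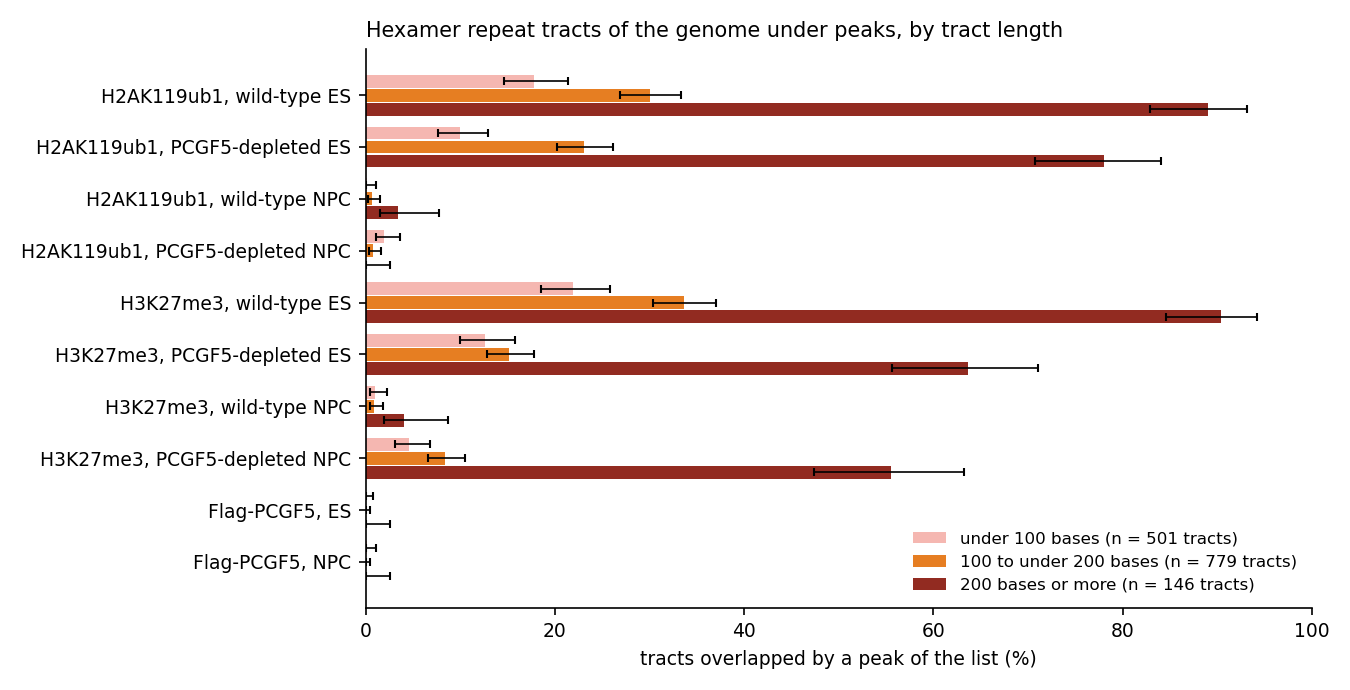
Share of GAGGCA repeat tracts of the genome that a peak of each list overlapped (horizontal axis, %), for tracts under 100, of 100 to under 200 and of 200 or more bases. Bars are shares and lines 95% Wilson intervals. Tracts of 200 bases or more were overlapped in 89.0% of cases by wild-type ES H2AK119ub1, in 3.42% by wild-type NPC H2AK119ub1 and in 55.5% by H3K27me3 of PCGF5-depleted NPC.

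Lost peaks, which form most of the ES list, were close to it in median width and score. By medians they were narrower and lower than each kept class. Their median width was 201 bp (139 to 2373), their median fold enrichment over background, as given by the peak caller, was 4.58 and their median −log10 p-value 7.23. All ES peaks had medians of 217 bp, 4.61 and 7.23, and peaks kept in both NPC lists 412 bp, 5.32 and 9.83. Peaks kept in wild-type NPC only had 248 bp, 4.66 and 7.98, and those kept in PCGF5-depleted NPC only 307 bp, 4.90 and 9.05. The widest lost peak, 2373 bp with a fold of 6.25, lay 13958 bp from a start site of Nrbp2. Others among the widest lay in Lmf1 (1563 bp), over Hrh3, a histamine receptor gene (1376 bp), over Flg, which encodes the skin protein filaggrin (1363 bp), and 147855 bp from Osr1, a transcription factor of kidney and limb (1276 bp). The lost share ranged from 87.2% of peaks in the lowest quartile of the ES list to 62.6% in the highest.

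The boundary of the class was sharp for a few peaks. The nearest lost peak to an NPC peak, chr5:28437859-28438038, was 1 bp away, and members near Vax1 and Irx5, both homeobox genes, were 2 bp away. Just inside the kept classes, peaks at Grm2, Chat and Cyfip2 shared 1, 3 and 4 bp with an NPC peak. Such cases were uncommon, as 716 lost peaks (10.7%) lay within 1000 bp of an NPC peak and the median gap to the nearer NPC list was 63546 bp. A retained ES peak lay within 10000 bp of 896 lost peaks (13.4%), so most did not flank a kept site.

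H2AK119ub1 was also listed in PCGF5-depleted ES at 963 lost peaks, 14.4% (13.5 to 15.2), while all ES peaks gave 25.2%. The shares were 53.5% (49.7 to 57.3) for peaks kept in wild-type NPC only, 54.1% for those kept in PCGF5-depleted NPC only and 75.6% for those kept in both. The interval for lost peaks lay below that of each kept class. Kept peaks were selected for a counterpart in another H2AK119ub1 list, so this difference is not independent of the selection. They were also wider, with medians of 248, 307 and 412 bp against 201 bp. The difference was present within quartiles of the score too, which do not account for selection or width, and the part of these was not tested. In the lowest quartile 7.46% (6.36 to 8.73) of lost and 47.5% (41.7 to 53.3) of kept peaks were found again, and in the highest quartile 30.3% of lost and 76.1% of kept peaks. Lost peaks found in PCGF5-depleted ES had a median fold of 4.93 in wild-type ES and of 3.92 in PCGF5-depleted ES, and 725 of the 963 were covered over at least 50% of their width. Those not found had a median fold of 4.45. A share of 30.1% (27.3 to 33.1) of the 963 held a tandem repeat, against 7.12% (6.49 to 7.82) of the others. Without windows that hold a tandem repeat the share found again was 11.2%.

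**Figure D2:**
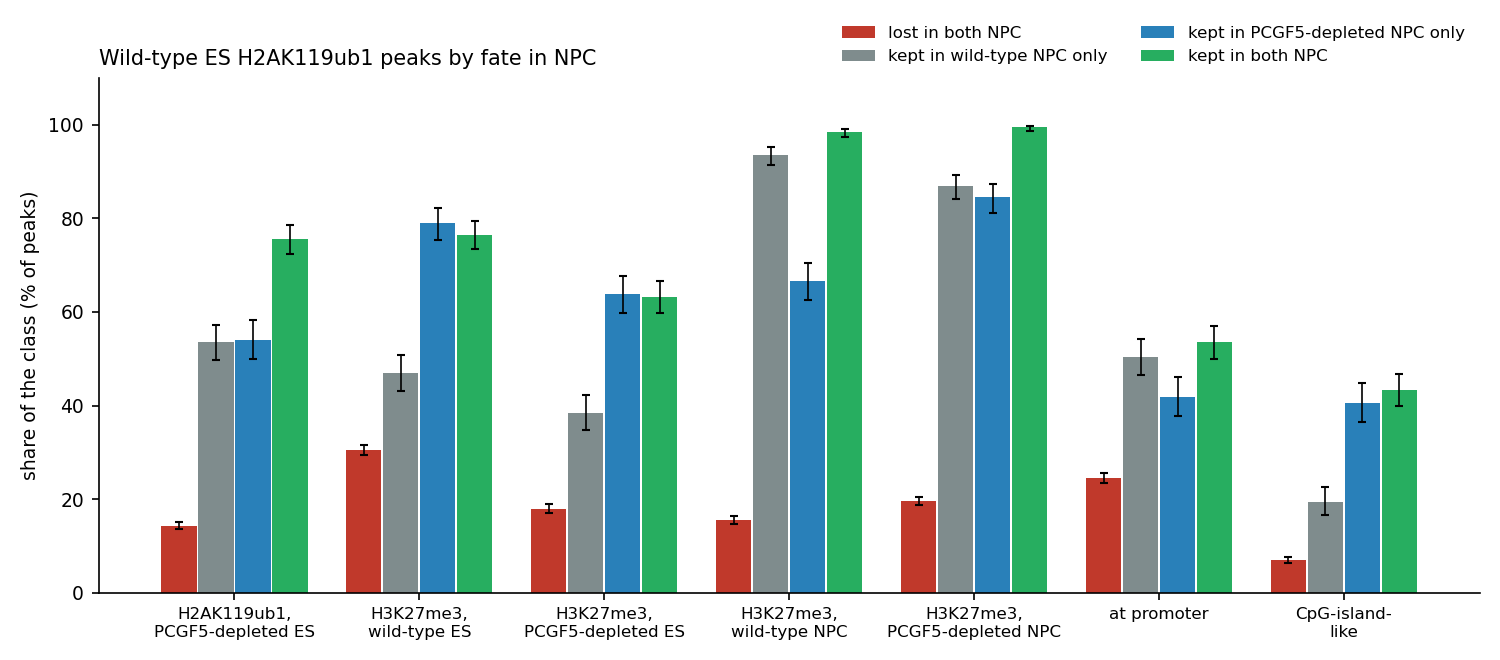
Share of peaks (vertical axis, %) in each of the 4 classes of wild-type ES H2AK119ub1 peaks that 1 of the 5 other histone lists plotted overlapped, that lay at a promoter or that were CpG-island-like. Lines are 95% Wilson intervals. Lost peaks have the lowest bar in each of the 7 groups drawn, 14.4% against 53.5% to 75.6% for H2AK119ub1 of PCGF5-depleted ES.

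H3K27me3 of wild-type ES overlapped 2043 lost peaks, 30.5% (29.4 to 31.6), beside 38.8% of all ES peaks. The kept classes gave 46.9% (wild-type NPC only), 79.0% (PCGF5-depleted NPC only) and 76.5% (both). By score quartile the share of lost peaks was 18.4%, 24.2%, 29.0% and 57.3% from lowest to highest, and that of kept peaks 46.4%, 53.8%, 64.7% and 82.2%. H3K27me3 of PCGF5-depleted ES overlapped 1203 lost peaks (17.9%, with 26.4% of all ES peaks). In NPC, H3K27me3 overlapped 1045 lost peaks in wild-type cells (15.6%, with 32% of all ES peaks) and 1313 in PCGF5-depleted cells (19.6%, with 35.8%). Both H3K27me3 of wild-type ES and H2AK119ub1 of PCGF5-depleted ES were present at 585 members (8.72%) and neither at 4284 (63.9%). For 3591 members (53.6%, beside 41.9% of all ES peaks) no peak of any of the 7 other lists was found, so that these rest on 1 library alone.

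**Figure D3:**
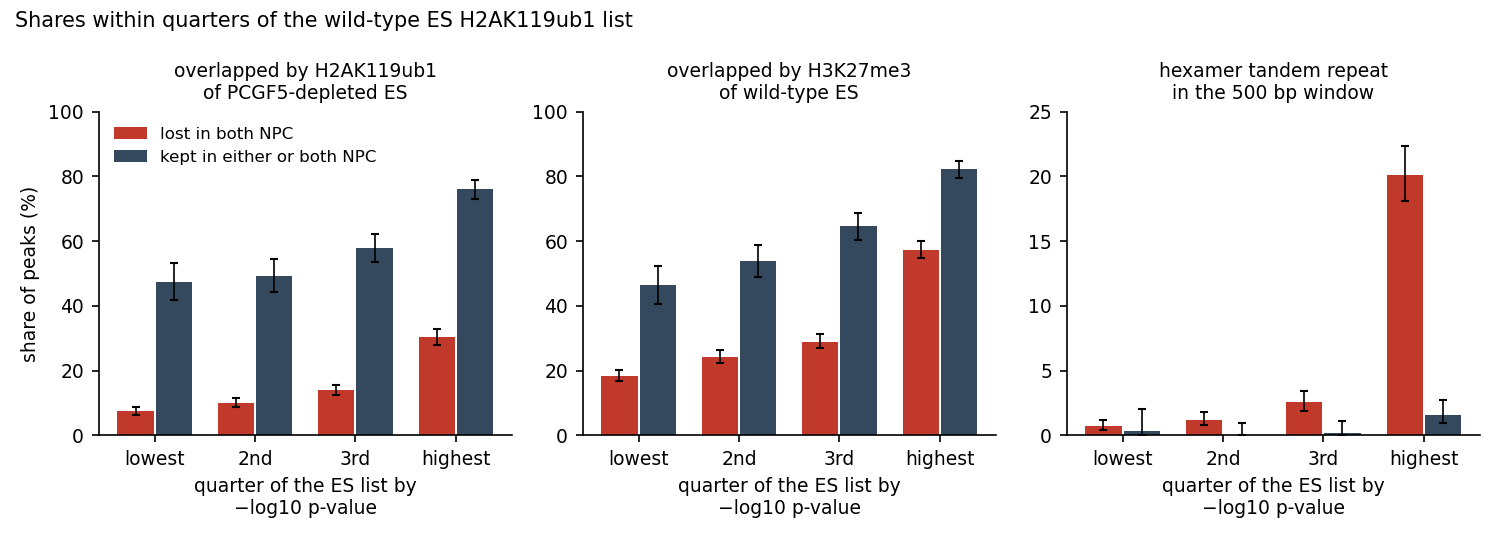
Share of lost and of kept peaks (vertical axes, %) within quartiles of the wild-type ES H2AK119ub1 list by −log10 p-value, for overlap with H2AK119ub1 of PCGF5-depleted ES, for overlap with H3K27me3 of wild-type ES and for the GAGGCA tandem repeat. Lines are 95% Wilson intervals and the right panel has its own scale. The repeat was held by 20.1% of lost and 1.60% of kept peaks in the highest quartile.

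Loss of the H2AK119ub1 peak did not always come with loss of H3K27me3. Of the 2043 members with H3K27me3 in ES, 549 (26.9%) carried it in NPC of both genotypes, 124 (6.07%) only in wild-type NPC, 322 (15.8%) in PCGF5-depleted NPC only and 1048 (51.3%) in neither. Over all ES H2AK119ub1 peaks with ES H3K27me3, 67.7% carried it in either NPC list and 12.7% in PCGF5-depleted NPC only. Of the 4662 members without H3K27me3 in ES, 553 (11.9%) carried it in NPC. Of the 322 members with H3K27me3 in PCGF5-depleted NPC only, 90 held the hexamer repeat and 27 another tandem repeat. Of the 124 in wild-type NPC only, 0 held either. Among members without a tandem repeat the counts were 205 and 124. When the longer PCGF5-depleted NPC list was shortened to the 11371 highest-scoring peaks, the length of the wild-type list, the counts over all 2043 were 265 and 181. Kept peaks with ES H3K27me3 gave 106 and 24 with the full lists and 93 and 44 with lists of equal length. Over all 11808 ES H3K27me3 peaks, with or without H2AK119ub1, the counts were 1096 and 883 with the full lists and 890 and 1239 with lists of equal length, so the direction of this difference turned with list length there. The NPC H3K27me3 lists covered 9.67 Mb in wild-type and 8.18 Mb in PCGF5-depleted cells.

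**Figure D4:**
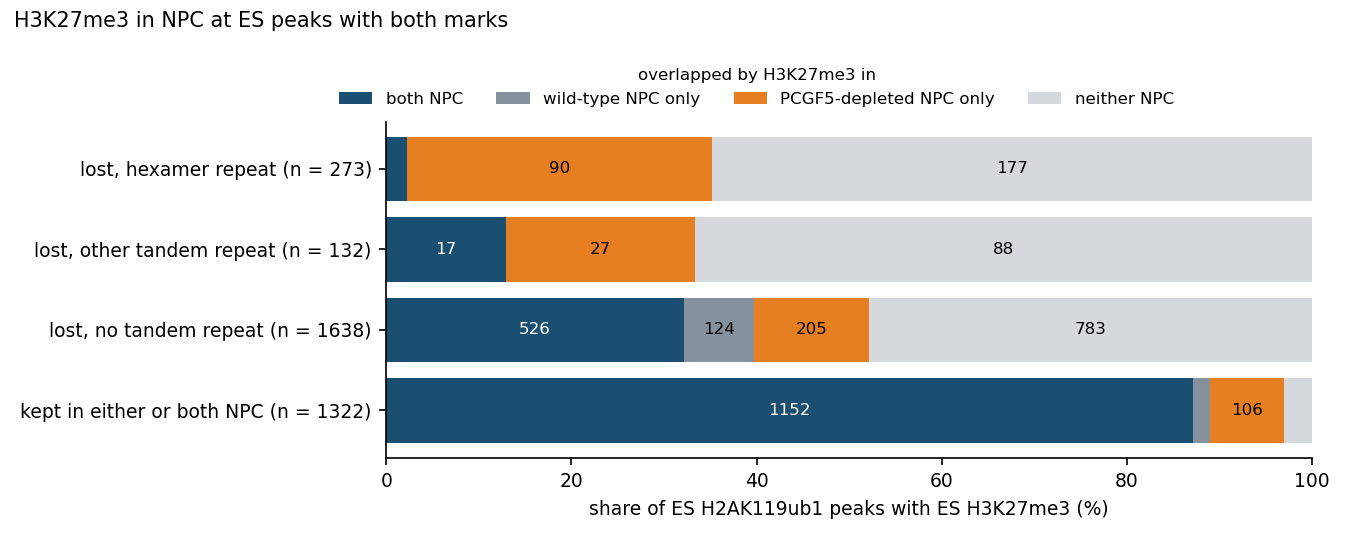
ES H2AK119ub1 peaks with H3K27me3 in ES, split by whether H3K27me3 was listed in both NPC, in wild-type NPC only, in PCGF5-depleted NPC only or in neither (horizontal axis, % of the group, counts printed on the bars). Of the 273 lost peaks with the GAGGCA repeat 90 fell in the PCGF5-depleted NPC only group, and of 1322 kept peaks 1152 carried the mark in both NPC.

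A promoter, here the 2500 bp to either side of the start of any protein-coding transcript, taken at the peak centre, held 1644 lost peaks, 24.5% (23.5 to 25.6), beside 30.1% of all ES peaks and 53.5% of those kept in both. The other members lay in introns (2300, 34.3%), intergenic sequence (2162, 32.2%) and exons (599, 8.93%). Of the promoter members 1103 (67.1%) lay downstream of the start, and the same share of all promoter ES peaks did (67.1%). H3K27me3 was more frequent at promoter members. It overlapped 44.6% of them in wild-type ES, 41.2% in NPC of the same genotype and 42.6% after PCGF5 depletion, whereas members elsewhere gave 25.9%, 7.27% and 12.1%. H2AK119ub1 of PCGF5-depleted ES overlapped 16.7% of promoter members and 13.6% of the others.

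Lost peaks differed from kept peaks in CpG content. Windows that were CpG-island-like, with a GC content of at least 50% and an observed over expected CpG ratio of at least 0.6, made up 7.05% (6.47 to 7.69) of lost peaks, 19.5% of those kept in wild-type NPC only, 40.6% of those kept in PCGF5-depleted NPC only and 43.3% of those kept in both. All ES peaks gave 13.3% and genome tiles 0.720%. Lost peaks were GC-rich, with a median of 55.4% against 41.6% in tiles. Their median CpG ratio, 0.188, was slightly above the 0.154 of tiles and below the 0.558 of peaks kept in both. At promoters 20.2% (18.3 to 22.2) of lost peaks were CpG-island-like, beside 29.8% of all promoter ES peaks. Promoter peaks kept in wild-type NPC only gave 25.4% (21.1 to 30.4), an interval that overlaps that of lost peaks. Those kept in PCGF5-depleted NPC only gave 66.5% and those kept in both 51.7%. Of 3 motifs searched on both strands, CACGTG was present in 7.20% of lost windows, 7.35% of all ES windows and 4.84% of tiles. Runs of 6 CA units were present in 5.76%, 7.03% and 7.11%, and runs of 6 GA units in 3.56%, 4.44% and 3.27%.

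Members at single loci are described by their fold enrichment, a value of 1 library each. The Api5 peak had a fold of 13.0 in wild-type ES H2AK119ub1, 6.12 in PCGF5-depleted ES H2AK119ub1 and 9.33 in wild-type ES H3K27me3, with no peak in the remaining lists. It lay 506051 bp from the nearest start, so the gene name is only a landmark. It held the hexamer repeat, and its marks in ES had no counterpart in the NPC lists.

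Among high-scoring members without the repeat, the Atg7 peak had a fold of 10.3 in ES H2AK119ub1, 3.21 in PCGF5-depleted ES and 7.77 in wild-type ES H3K27me3. The Gas8 peak lay in an intron and carried H3K27me3 in all 4 lists, with folds of 7.67 and 8.42 in wild-type and PCGF5-depleted ES and 9.81 and 4.28 in NPC. The Flg peak, in coding sequence of filaggrin, had a fold of 7.98 in ES H2AK119ub1 and 8.15 in ES H3K27me3. Others among the 10 highest were nearest to Pfdn4, Lmbrd1 and Dux. Dux, a homeobox gene of the cleavage stage embryo, and its neighbours Gm10807 and Gm4981 lie beside each other on chromosome 10 in an array known for near-identical copies. Members ranked highest there had folds of 3.99 to 4.90, and how reads were placed among the copies was not tested, so these peaks are given as uncertain.

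Promoter members also found in both PCGF5-depleted ES H2AK119ub1 and wild-type ES H3K27me3 numbered 164. Besides Naip2, Stk32c and Flg, the 10 highest included peaks at Kcnj11, a subunit of the ATP-sensitive potassium channel (fold 6.81), and at Fam163b (6.81). Another lay at Ptgr2, a prostaglandin reductase gene (5.77), and the 500 bp window about its centre held a hexamer tract of 448 bases. Promoter members found in neither list numbered 799. Among the 5 highest was Cdh22, a cadherin gene (fold 7.17), where H3K27me3 was listed in NPC with folds of 8.30 in wild-type and 3.39 in PCGF5-depleted cells.

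Lost peaks lay at the promoters of 1189 of 22232 protein-coding genes (5.35%), and 987 of these (4.44% of genes) had no kept ES peak at a promoter. A further 299 genes had kept peaks only. At another position within the promoter window 133 of the 987 (13.5%, beside 4.98% of all genes) had an H2AK119ub1 peak in wild-type NPC and 123 (12.5%, beside 4.17%) in PCGF5-depleted NPC. H3K27me3 marked 706 of the 987 in wild-type ES (71.5%, beside 13.4% of all genes), 558 in wild-type NPC (56.5%, beside 15.7%) and 618 in PCGF5-depleted NPC (62.6%, beside 15.4%). PCGF5-depleted ES had H2AK119ub1 at 323 (32.7%, beside 5.96%). H3K27me3 was present in ES and in both NPC lists at 464 (47.0%, beside 8.69% of all genes), and in ES and neither NPC list at 130 (13.2%, beside 2.45%). These shares use the same annotation for every list, and genes with many start sites offer more room for a peak.

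Developmental transcription factors, the best known Polycomb targets, held lost and kept peaks in different proportions. Shares with a lost peak are to be read beside the 5.35% of all protein-coding genes that had one. Of 39 Hox genes 2 had a lost peak (5.13%, near the share of all genes), and 29 had kept peaks only. The 2 were Hoxb1 (3 peaks, best fold 5.74) and Hoxd1 (fold 3.94). Of 80 other homeobox genes 32 had a lost peak (40%), and 27 of these had a kept peak as well, so the loss was partial. Pax6, a master gene of eye and forebrain, had 1 lost and 8 kept peaks, and Isl2, of motor neurons, 1 lost (fold 6.45) and 2 kept. The 5 with lost peaks only included Nkx2-9 (6.45), Meis3 (6.34) and Six5 (6.34). Of 85 forkhead, Gata, T-box and Sox genes 20 had a lost peak (23.5%), 12 of them without a kept one. Sox4, which acts in neural and lymphoid progenitors, had 1 lost peak (fold 7.89), Gata5, of endoderm and heart, had 4 (best fold 5.63) and Tbx4, of the hindlimb, had 3 lost and 2 kept peaks. Of 33 basic helix-loop-helix genes 4 had one (12.1%), Ptf1a (6.09), Olig2 (4.58, with 4 kept peaks), Twist2 (4.30) and Hes5 (2.68). Promoters without a kept peak were not always unmarked in NPC. Elsewhere in the promoter window H2AK119ub1 was listed in wild-type NPC at Hoxb1, Hoxd1, Nkx2-9, Ptf1a and Twist2. In PCGF5-depleted NPC it was listed at Hoxd1, Ptf1a, Twist2 and Hes5. Neither NPC list had it at Meis3, Six5, Sox4 or Gata5.

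Genes of signalling and of the cell surface made up a further set, to be read beside the 5.35% of all genes that had a lost peak. Of the 1189 genes with a lost peak, 987 had no kept one. Of 86 Wnt, Fgf, Bmp and Nodal pathway ligands and antagonists 19 had a lost peak, 10 without a kept one. Among them were Bmp1, a procollagen protease (3 peaks, best fold 5.63), Fst, which encodes the activin antagonist follistatin (5.38), Wnt3, of gastrulation (5.38), and Shh, the ventral neural morphogen (5.63, with 1 kept peak). All 10 with lost peaks only had H3K27me3 at the promoter in ES and in at least 1 NPC list. Of 71 axon guidance genes 18 had one, 15 without a kept peak, such as the Eph receptor genes Epha8 (7.17) and Ephb1 (6.45) and the plexin gene Plxna1 (6.45). Of 92 potassium channel genes 21 had one, 20 without a kept peak, with Kcnj11 (6.81), Kcnj4 (6.34) and Kcnk2 (5.83) among the highest. Of 100 neurotransmitter receptor genes 12 had one, 6 without a kept peak. The adrenergic receptor gene Adra2b (6.28) had no kept peak, while Adra2a (5.38) and Adra2c (4.79) had 1 kept peak each. Of 43 collagen genes 11 had a lost peak and 0 a kept one, with Col16a1 (6.34) and Col27a1 (5.99) highest. Elsewhere in the promoter window H2AK119ub1 was listed at Col27a1 in both NPC lists, and at Ephb1 and Kcnj4 in PCGF5-depleted NPC. The other genes named in this paragraph without a kept peak had it in neither NPC list.

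Ribosomal protein and histone genes held no lost peak. Of 82 ribosomal protein genes 0 had one, of 66 replication-dependent histone genes 0, of 1406 olfactory and vomeronasal receptor genes 3 and of 361 zinc finger Zfp genes 8, beside 5.35% of all genes. Of 24 clustered protocadherins 2 had one (8.33%), and of 31 Polycomb genes 2 (6.45%), which had kept peaks too.

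Markers of the cell states could be looked up only as promoter peaks. Of 19 pluripotency genes annotated 0 had a lost peak and 2 a kept one, and Pou5f1 and Nanog had no peak at the promoter in any of the 10 lists. Of 18 early neural genes annotated 5 had a lost peak (27.8%), beside 5.35% of all genes. Nes, which encodes the neural intermediate filament nestin, had 1 lost peak 1407 bp from a start site (fold 3.94) and no kept one, with H2AK119ub1 listed there in PCGF5-depleted ES (3.76) and H3K27me3 in wild-type and PCGF5-depleted NPC (6.06 and 6.35). Elsewhere in its promoter window H2AK119ub1 was listed in PCGF5-depleted NPC and not in wild-type NPC, as it was at the promoters of Cdh2 and Pou3f2. Pou3f1, Zic1 and Pax6 had kept peaks besides, and Hes5 had none. Of the other genes examined by the study, Nodal, Lefty1, Lefty2, Pcgf5, Cdh2 and Pou3f2 had no ES H2AK119ub1 peak at the promoter. A lost peak lay 3158 bp from Pou3f2, outside the promoter window, with a fold of 7.89.

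**Figure D5:**
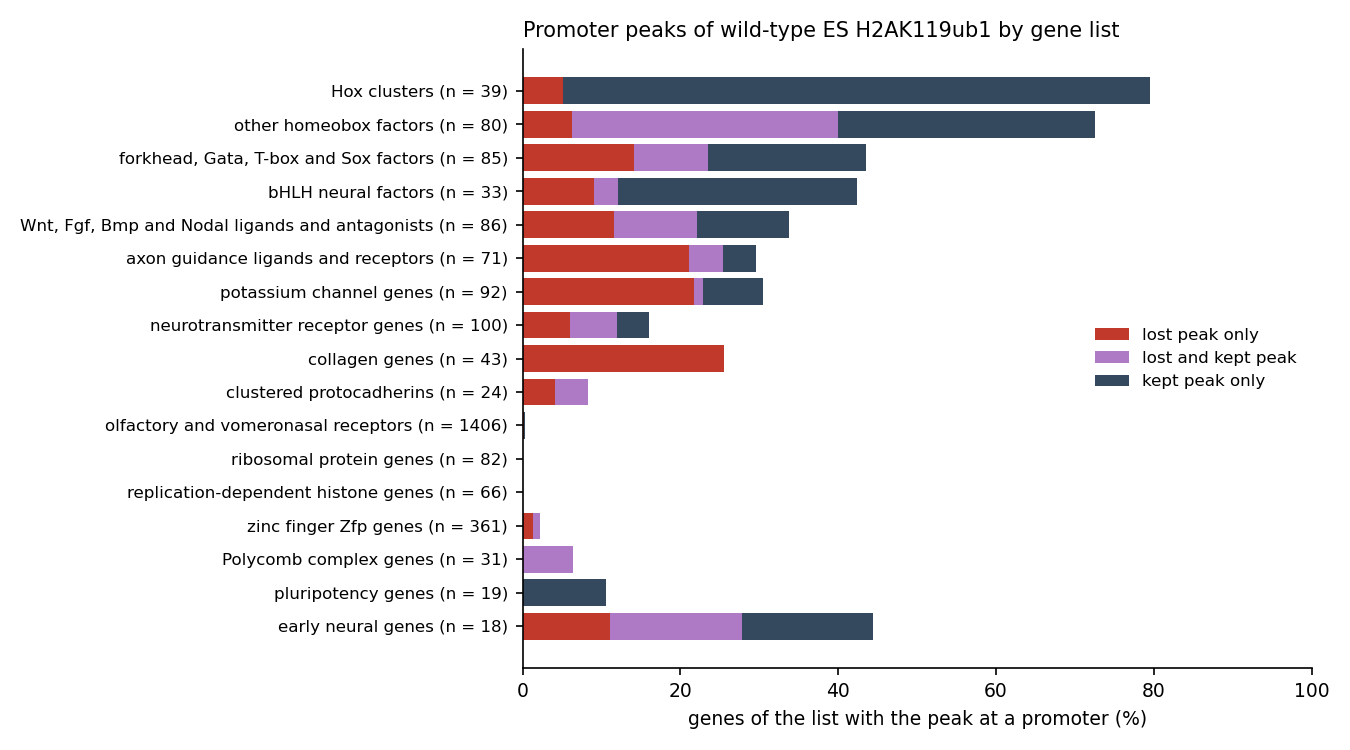
Share of the annotated genes of each list (horizontal axis, %, n in brackets) with a lost ES H2AK119ub1 peak only, with lost and kept peaks or with kept peaks only at a promoter. Of 80 other homeobox genes 27 had both kinds, while 11 of 43 collagen genes had lost peaks only.

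Lost peaks were crowded in some places. Windows of 1 Mb with at least 20 members numbered 62 and held 2128 members (31.7%). The most crowded 100 kb window, chr7:150500001-150600000, within the imprinted Kcnq1 domain, held 56 ES H2AK119ub1 peaks, and all 56 were lost. None lay at a promoter. H2AK119ub1 of PCGF5-depleted ES overlapped 9 of them and H3K27me3 of wild-type ES 12, while both NPC lists of H2AK119ub1 and both of H3K27me3 held 0 peaks in the window. The neighbouring window with Cdkn1c and Phlda2, genes of growth control expressed from the maternal copy, held 25 members among 29 ES peaks. A window on chromosome 6 upstream of Atg7, chr6:114500001-114600000, differed in that 36 of 90 ES peaks were lost and H2AK119ub1 gave 12 peaks in wild-type NPC, 63 in NPC without PCGF5 and 80 in ES without PCGF5. The windows were chosen for their counts, and these values are a description. Per chromosome the lost share ran from 58.0% on chromosome 6 to 91.5% on the X chromosome, leaving out the Y chromosome with 3 ES peaks.

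PCGF5 was seldom found at the lost sites. Flag-PCGF5 overlapped 22 members in ES (0.328%, beside 0.438% of all ES peaks) and 271 in NPC (4.04%, beside 4.72%), and 277 in either (4.13%, beside 4.88%). The ES Flag list had 653 peaks in all, which limits what it could show. The highest members with Flag-PCGF5 in NPC were those near Pou3f2, a POU factor of neural progenitors (fold of 2.90 for Flag-PCGF5), near Phlda1 (2.64) and near Bmp10, a heart ligand (4.44). Only the Pou3f2 member had H3K27me3 in wild-type ES and in both NPC lists, with folds of 4.30, 3.39 and 4.65. Shares of lost peaks with Flag-PCGF5 were thus close to those of all ES peaks, of which lost peaks made up 77.3%. Flag-PCGF5 of NPC overlapped 3.62% of peaks kept in wild-type NPC only. It overlapped 9.78% (7.55 to 12.6) of those kept in PCGF5-depleted NPC only and 8.01% (6.28 to 10.1) of those kept in both. Flag-PCGF5 of ES gave 0.151%, 1.85% and 0.656% of these classes.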

How the data were processed

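Peak lists of 10 ChIP-seq libraries were used, and the other 6 libraries, inputs, were not used here. According to the methods of the study, the authors digested chromatin for histone marks with micrococcal nuclease before light fixation, aligned reads to mm9 with Bowtie2, removed duplicates and called peaks per library with MACS2 2.1.0, without pooling. The spike-in did not enter the lists. The deposited lists give a score, a fold enrichment ratio over background and the −log10 of both the p-value and the q-value of each peak, as the authors' caller wrote them. These were used to rank or describe peaks within a list, and no file gave read totals. Since each list was called on its own depth and background, absence from a list depends on both, and repeats depend on how the aligner placed reads.

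From the lists, overlap was counted at 1 bp or more and 9 overlap counts were checked against bedtools 2.31.1, with 0 differences. Overlap calling was also tested on simulated data. Genes came from GENCODE M1 on NCBIM37, with 22232 protein-coding names, and coordinates count from 1. Score quartiles split the ES list into 4 equal parts by −log10 p-value. Sequence was read from the same assembly in 500 bp windows, tiles were placed every 100 kb, and these served as the genome's background. Named peaks were the 10 highest by −log10 p-value, the 10 highest at promoters in both other ES lists, the 5 highest in neither, the 5 widest, the 5 highest with Flag-PCGF5, the 3 nearest to the selection limit on each side and up to 4 per gene list. With 1 library per group no test was made, and 95% Wilson intervals describe how counting alone limits each share. Of the genes listed, Sox1, Map2 and Tfcp2l1 were not matched in the annotation. The members, gene lists and counts were chosen with earlier results of these data known, and the tandem repeats, crowded windows and list-length check were added after seeing the data. Some named peaks and sequences are not reported here. Other overlap rules, thresholds, merging and promoter windows were tried as alternatives.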

Additional observations from a re-analysis of the deposited data

Results flagged for a closer look

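The number of lost H2AK119ub1 peaks overlapped by H3K27me3 was lower in PCGF5-depleted than in wild-type ES by 840, a change of -840 from 2043 to 1203, and higher in PCGF5-depleted than in wild-type NPC by 268, from 1045 to 1313. It is listed here because the changes ran in opposite directions at the 2 stages. How the stages differ was not tested, since each group is 1 library. Peaks kept in NPC gave 1322 and 1083 in ES and 1732 and 1792 in NPC. Members with the GAGGCA repeat gave a change of -118 in ES and of 99 in NPC, and members without a tandem repeat a change of -675 and of 131. The H3K27me3 lists held 11808 and 10234 peaks in ES and 11371 and 14759 in NPC, and the part of list length and depth in the change was not tested.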

How the results depend on the processing

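No paired analysis was possible because every group holds 1 library. For the same reason no replicate could be left out, genotype, stage and library cannot be told apart, and no read totals were at hand to compare depth between lists. Of 47 values computed under alternatives, 22 stayed within the interval of the value reported and 25 moved. With a peak within 1000 bp counted as shared, the lost share was 69.1%, H2AK119ub1 of PCGF5-depleted ES overlapped 20.7% of lost peaks, ES H3K27me3 40.0% and Flag-PCGF5 7.93%, and 21.3% lay at promoters. With at least 50% of the ES peak overlapped these were 82.5%, 12.3%, 26.9%, 3.41% and 26.4%. In the higher-scoring 50% of the ES list they were 69.9%, 21.2%, 41.6%, 3.56% and 25.6%. With peaks within 1000 bp merged, the lost share was 83.1%, ES H3K27me3 overlapped 29.2% and 21.2% lay at promoters. A promoter window of 1000 bp held 12.8%, since it is narrower. Alternatives added after seeing the data left out windows with a tandem repeat, which gave 11.2% for PCGF5-depleted ES, 27.3% for ES H3K27me3 and 26.4% for promoters, windows with a GAGGCA repeat, which gave 12.3% and 27.9% for PCGF5-depleted ES and ES H3K27me3 and 25.5% for promoters, and the 10 most crowded 1 Mb windows, which gave 25.8% for promoters.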
